A study of Homo sapiens with 10 samples.

Results

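The EGR, NAB and SRF genes were followed across RNA-seq libraries of 697 cells, a human pre-B leukaemia line, with and without the phorbol ester TPA. The set holds 7 genes of the 27142 in the deposited expression table, taken by symbol: the 4 early growth response genes EGR1, EGR2, EGR3 and EGR4, the 2 NAB corepressor genes NAB1 and NAB2, and SRF. The TPA group comprised 2 libraries of parental 697 cells given 0.5 µg/ml TPA (12-O-tetradecanoylphorbol-13-acetate, an activator of protein kinase C), and the control group comprised 2 libraries of parental 697 cells. The labels give the length of treatment only as 0 to 24 h, do not tie a time to the RNA libraries and do not say whether replicates were separate cultures, so each p-value measures the spread between these samples only, which may be technical. The study's 6 ChIP and input samples, some from a derived line that expresses FH-NAP1, were not analysed here.

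EGR proteins are zinc finger transcription factors that bind GC-rich DNA and are made within a short time of a growth, antigen-receptor or phorbol ester signal. That induction runs largely through the ERK pathway, which phosphorylates ternary complex factors such as ELK1 held on CArG boxes by the serum response factor, SRF. NAB1 and NAB2 bind EGR1, EGR2 and EGR3 and repress their activity. NAB2 is itself known as an EGR target, so that pair forms a negative feedback loop. In lymphocytes EGR factors are known for roles in early B- and T-cell development and in anergy.

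The sequences before the annotated starts of 5 members are shown first, with matches to the motifs of the factor families named above. RefSeq promoter windows (GRCh38.p14) were matched for 6 of the 7 genes, in 11 windows, and the 250 bases before each start were searched on both strands for the CArG box, for the EGR site GCGNGGGCG and for the core of the cyclic AMP response element (CRE), TGACGT, with overlapping matches allowed. The ETS site CCGGAA, bound by the ternary complex factors and by other ETS factors, was searched in the same way but is not capitalised. It is a strict form, and ETS sites that share only its GGAA letters were not searched. Sequences run 5′ to 3′ along the gene's own strand, and capitals mark matches. The EGR1 and EGR2 windows are shown because these genes had the highest levels with TPA, the SRF window because it holds sites for both factor families, and the NAB windows because the 2 corepressor genes differed in response. Where a gene had several windows, the one shown was picked by its motifs. For EGR2 and SRF it was the window with most CArG boxes, and for NAB1 the first with an EGR site. A CArG box stood in 1 of 3 EGR2 windows and 1 of 2 SRF windows, and an EGR site in 2 of 3 NAB1 windows. The EGR1 window lies at chr5:138465229-138465478 on the plus strand, the EGR2 window at chr10:62816367-62816616 on the minus strand, the SRF window at chr6:43171019-43171268 on the plus strand, the NAB2 window at chr12:57088864-57089113 on the plus strand and the NAB1 window at chr2:190648645-190648894 on the plus strand.
EGR1: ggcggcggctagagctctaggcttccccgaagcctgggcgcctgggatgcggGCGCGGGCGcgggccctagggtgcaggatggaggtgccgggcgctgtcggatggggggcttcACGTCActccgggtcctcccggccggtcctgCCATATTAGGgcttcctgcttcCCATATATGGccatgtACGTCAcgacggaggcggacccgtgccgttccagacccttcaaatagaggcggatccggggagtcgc
EGR2: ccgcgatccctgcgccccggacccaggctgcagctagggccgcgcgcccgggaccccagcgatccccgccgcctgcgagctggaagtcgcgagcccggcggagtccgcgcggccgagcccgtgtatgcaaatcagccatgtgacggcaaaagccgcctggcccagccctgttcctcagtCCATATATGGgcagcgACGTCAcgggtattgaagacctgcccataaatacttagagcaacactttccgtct
SRF: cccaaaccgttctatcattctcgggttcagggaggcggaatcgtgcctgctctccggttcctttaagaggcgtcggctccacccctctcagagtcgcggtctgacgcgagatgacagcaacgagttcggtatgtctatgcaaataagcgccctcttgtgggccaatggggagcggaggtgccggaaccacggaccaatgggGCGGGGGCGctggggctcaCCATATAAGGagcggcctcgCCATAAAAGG
NAB2: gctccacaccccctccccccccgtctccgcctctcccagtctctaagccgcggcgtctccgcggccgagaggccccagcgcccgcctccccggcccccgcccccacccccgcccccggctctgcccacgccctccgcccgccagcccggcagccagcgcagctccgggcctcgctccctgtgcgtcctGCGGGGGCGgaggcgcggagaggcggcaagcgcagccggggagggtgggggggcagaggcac
NAB1: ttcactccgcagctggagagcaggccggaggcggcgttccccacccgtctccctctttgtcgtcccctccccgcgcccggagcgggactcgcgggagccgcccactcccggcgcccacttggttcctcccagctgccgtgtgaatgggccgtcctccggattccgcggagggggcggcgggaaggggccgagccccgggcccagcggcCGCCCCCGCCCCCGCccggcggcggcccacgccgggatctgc

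The EGR1 window held 2 CArG boxes, CCATATTAGG from -105 to -96 and CCATATATGG from -83 to -74, counted from the annotated start. It also held 2 CRE cores and 1 EGR site, GCGCGGGCG from -198 to -190. Of the 3 EGR2 windows, the 1 shown held a CArG box, CCATATATGG from -71 to -62, the same 10 letters as the downstream box of EGR1, and in both windows 6 bases separated this box from a CRE core. The SRF window shown held 2 CArG boxes, from -30 to -21 and from -10 to -1, and the EGR site GCGGGGGCG from -49 to -41. It also held the only match to the searched ETS site in the 11 windows, from -70 to -65. NAB2 held the same 9 letters of the EGR site from -62 to -54 and no CArG box. The NAB1 window shown held 2 EGR sites on the minus strand that overlap by 3 bases. A second NAB1 window, which overlaps it, held these and a further EGR site, GCGTGGGCG on the plus strand from -175 to -167, the last NAB1 window held 1 CRE core and no EGR site, and none of the 3 held a CArG box. EGR4 had 2 CRE cores and no match to the other motifs searched in its 1 window. Among all 35116 windows searched, a CArG box stood in 1.16%, an EGR site in 8.41%, a CRE core in 7.10% and the ETS site in 14.5%. Counted per tested gene with a window (8941 genes), the shares were 1.42%, 17.7%, 12.9% and 31.7%. A match describes these letters and is not shown to be bound.

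**Figure D1:**
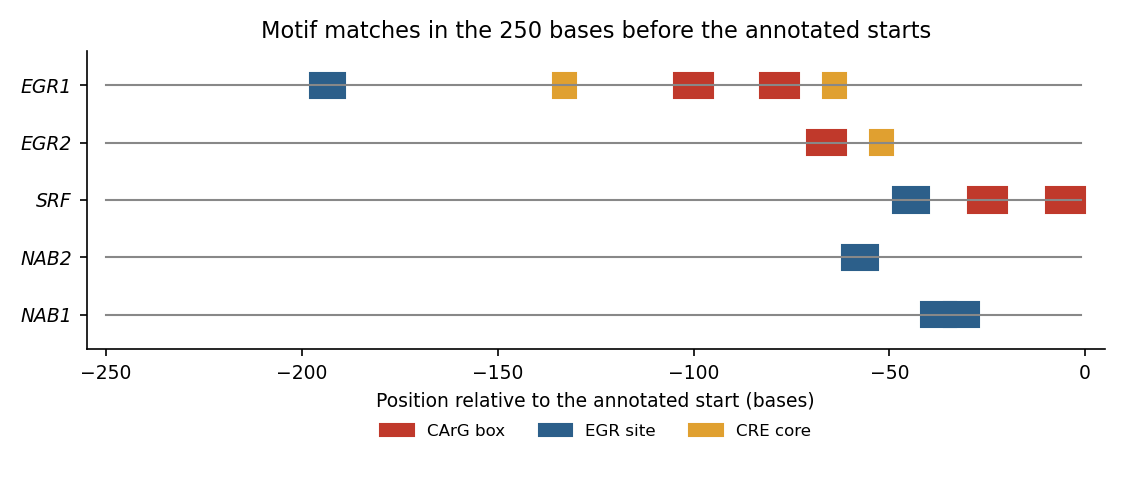
Motif matches in the 250 bases before an annotated start of EGR1, EGR2, SRF, NAB2 and NAB1, by distance from the start in bases. Red blocks mark CArG boxes, blue blocks EGR sites and yellow blocks CRE cores; the 2 NAB1 matches overlap and appear as 1 block. CArG boxes stand in the EGR1, EGR2 and SRF windows shown, and the NAB windows shown hold EGR sites as their only marked motif. For EGR2, SRF and NAB1, which have several windows, the window was picked by its motifs. The ETS site is not drawn.

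Values are in RPKM, which relates reads to transcript length and to library size, so that levels of different genes can be compared per length. Summed RPKM was 349438 and 388846 in the TPA libraries and 370558 and 386700 in the control libraries, and the steps between low values put the depth of every library between 91.3% and 100% of that of control replicate 1. The number of reads is not given. Every one of the 15 pre-B markers reached the filter, and their summed level was 1431 and 1653 RPKM with TPA, against 2571 and 2552 RPKM in control, with 4 that rose and 11 that fell. The 7 T-cell and 5 erythroid markers were under 1 RPKM in all 4 libraries. So were 8 of 9 myeloid markers, which summed to 3.13 and 3.85 RPKM with TPA and 0.667 and 0.972 RPKM in control, CSF1R being the exception, and 3 of 4 stromal markers. The fourth stromal gene, the growth factor receptor gene PDGFRB, had 272 and 223 RPKM with TPA and 9.67 and 8.74 RPKM in control, while the stromal collagen genes COL1A1 and COL1A2 and the gene DCN stayed under 1 RPKM. The part that the fall of pre-B markers has in the results below was not tested. In these bulk samples, fewer cells expressing a gene and less of its RNA per cell cannot be told apart.

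TPA-treated cells expressed EGR1 and EGR2 at about equal and high levels, whereas control cells had little of either, and the corepressor gene NAB2 rose with them, while the TPA values of NAB1 lay between its control values. Of the 7 genes, 6 reached 1 RPKM in 2 or more libraries, and they were tested together with all other such genes (limma on log2(RPKM + 1), Benjamini-Hochberg adjusted p under 0.05 over 12159 genes). EGR1, EGR2, EGR3 and NAB2 rose, NAB1 and SRF did not pass, and EGR4 was below the filter. These 4 of 6 stand against a background in which 58.2% of all genes tested passed, 28.4% upward and 29.8% downward. EGR2 and EGR3 passed the filter through their TPA libraries alone, so the count itself carries no weight. The values of TPA and control libraries did not overlap for 5 of the 6, against 79.8% of all genes tested.

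EGR1 (5q31.2), the founding member of the family, had 154 and 89.9 RPKM in the TPA libraries and 1.62 and 1.01 RPKM in the control libraries. Both TPA libraries lay far above both controls, and replicate 1 was the higher of the pair in each group. The means were 122 ± 45.4 RPKM with TPA and 1.32 ± 0.428 RPKM in control (SD, n = 2 libraries each, as for all such values), a ratio of 92.7. Its log2 fold change of 5.69 (SE 0.25, limma, adjusted p = 1.18e-06) was the 16th largest rise on this scale among all genes tested.

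EGR2 (10q21.3), known outside the immune system for its part in myelination by Schwann cells, had 124 and 123 RPKM with TPA, against 0.338 and 0.348 RPKM in control. The replicates lay closer together than for any other EGR gene tested, in both groups. EGR2 averaged 124 ± 0.468 RPKM with TPA and 0.343 ± 0.00707 RPKM in control, a ratio of 360.1, and its log2 fold change of 6.53 (SE 0.13, limma, adjusted p = 8.74e-08) ranked 6th among the rises. The EGR2 mean lay between the 2 TPA values of EGR1, so the levels of these genes with TPA did not differ beyond the replicate spread.

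EGR3 (8p21.3), which is induced with EGR2 in activated T cells and is likewise bound by NAB proteins, had 10.7 and 6.81 RPKM with TPA and 0.082 and 0.011 RPKM in control. It was detectable in the control libraries only at the bottom of the scale, and every TPA value exceeded both. The TPA mean was 8.77 ± 2.77 RPKM and the control mean 0.0465 ± 0.0502 RPKM. Its log2 fold change was 3.19 (SE 0.20, limma, adjusted p = 5.61e-06). With control values this low the size of the change depends on the constant added before the logarithm, and it was 4.05 with a constant of 0.5 and 5.93 with 0.1. Per length, EGR3 made up 3.72% and 3.10% of the summed EGR level in the TPA libraries.

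EGR4 (2p13.2), the family member best known from neurons, had 0.009 and 0.010 RPKM with TPA and was listed at 0 in both control libraries. No other member had TPA values this low, and no fold change is given. Its nearest protein-coding neighbours in the RefSeq order, FBXO41 and ALMS1, were expressed at 13.7 ± 0.788 and 2.26 ± 0.298 RPKM with TPA, against 18.8 ± 1.49 and 4.81 ± 0.382 RPKM in control.

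**Figure D2:**
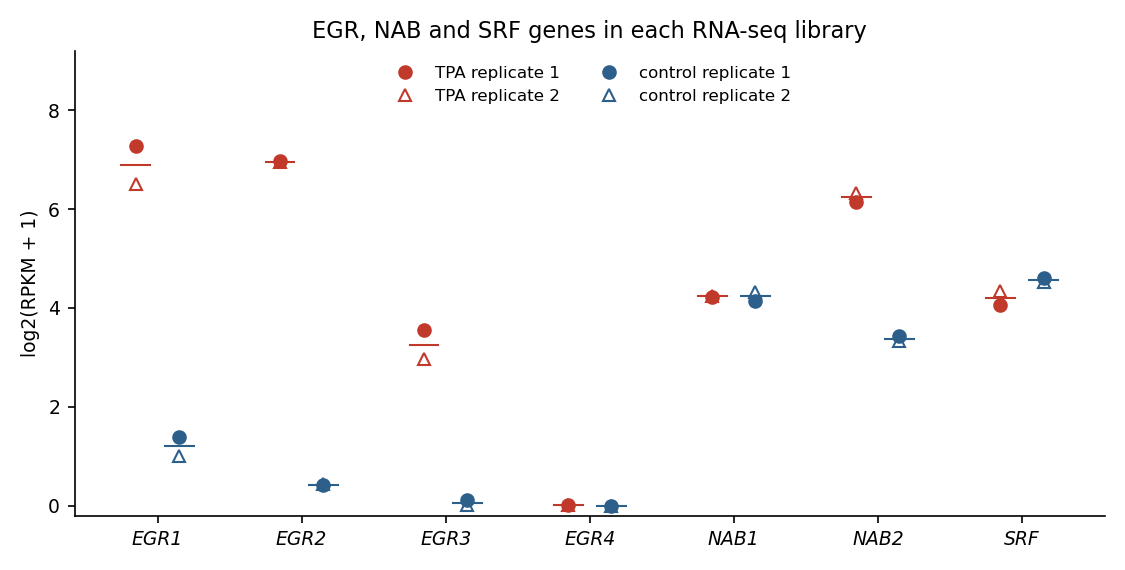
Level of each EGR, NAB and SRF gene as log2(RPKM + 1) in the 2 TPA (red, left) and 2 control (blue, right) libraries; filled circles are replicate 1, open triangles replicate 2 and bars group means. EGR1, EGR2, EGR3 and NAB2 lie higher in both TPA libraries than in either control, NAB1 overlaps between groups, SRF lies lower with TPA and EGR4 sits at the floor.

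NAB2 (12q13.3), the inducible corepressor, had 69.9 and 79.3 RPKM in TPA libraries, against 9.80 and 9.01 RPKM in control libraries. The groups were well separated. The gap between TPA replicates, replicate 1 minus replicate 2 on the log2 scale, was -0.18, opposite in sign to that of EGR1 and EGR3. It lay near the median gap of all genes tested, -0.13. NAB2 averaged 74.6 ± 6.61 RPKM with TPA and 9.41 ± 0.558 RPKM in control, a ratio of 7.93, and its log2 fold change was 2.86 (SE 0.14, limma, adjusted p = 1.85e-06). Its gene overlaps STAT6 in the RefSeq order, and strand use in counting is not given in the sources used here, so reads of the overlap cannot be assigned. STAT6, the transcription factor of interleukin-4 signalling, had 78.2 and 82.7 RPKM with TPA and 40.9 and 37.5 RPKM in control, a ratio of 2.05. The next protein-coding gene on the other side of NAB2, the nuclear envelope gene NEMP1, fell to 8.67 ± 0.155 RPKM with TPA, against 20.1 ± 0.798 RPKM in control.

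NAB1 (2q32.2), the corepressor regarded as constitutive, had 17.7 and 17.8 RPKM with TPA, against 16.7 and 19.0 RPKM in control. Both TPA values lay between the control values. Its log2 fold change was -0.002 (SE 0.13, limma, adjusted p = 0.993), and it took the opposite sign after quantile normalization (0.04) and without either TPA replicate 1 (0.003) or control replicate 2 (0.09). The ratio of NAB2 to NAB1 was accordingly 3.94 and 4.44 in TPA libraries and 0.587 and 0.474 in control libraries, so NAB2 was the more abundant corepressor transcript per length with TPA and NAB1 in control.

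SRF (6p21.1), the factor through which ERK signals reach the EGR1 promoter, had 15.6 and 19.3 RPKM with TPA, against 23.3 and 22.0 RPKM in control. Both TPA values were below both control values, but the means of 17.4 ± 2.66 RPKM with TPA and 22.7 ± 0.915 RPKM in control gave a log2 fold change of -0.37 (SE 0.15) that did not pass (limma, adjusted p = 0.0637). The call turned on the processing: SRF passed in 4 of the 13 alternatives, among them median-of-ratios scaling (log2 fold change -0.39, adjusted p = 0.0222), quantile normalization (-0.32, adjusted p = 0.0455) and the fit without TPA replicate 2 (-0.51, adjusted p = 0.0276), and over all 13 its adjusted p ran from 0.0222 to 0.278.

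**Figure D3:**
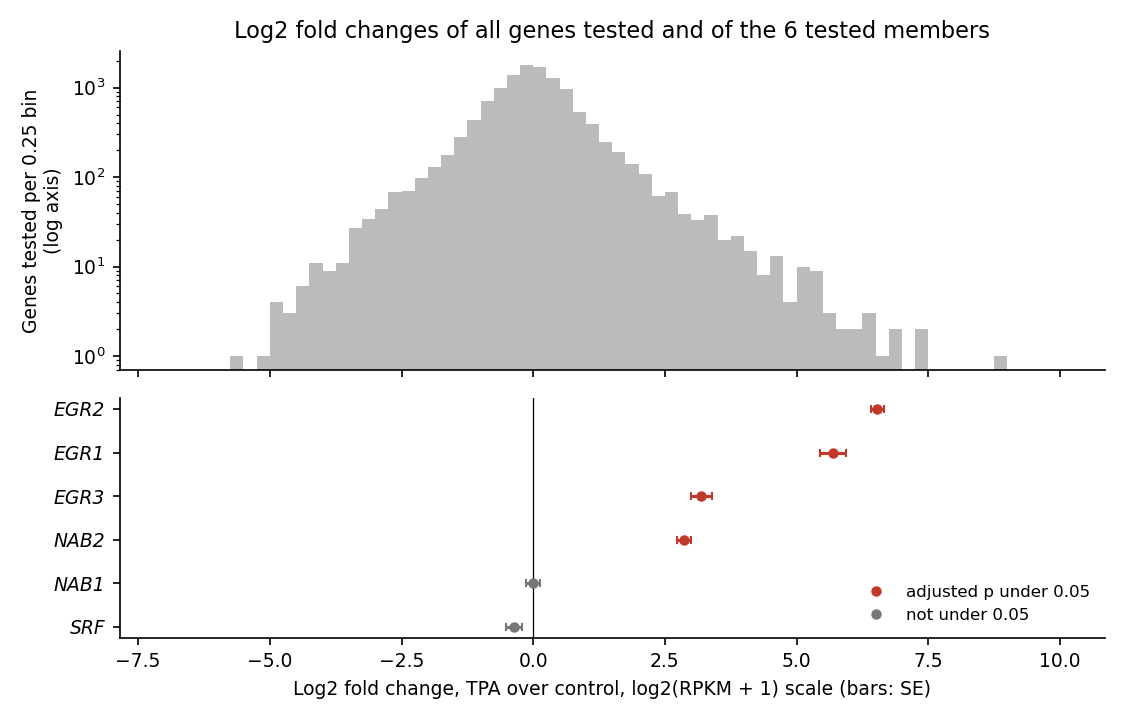
The upper panel gives the number of genes per bin of 0.25 in log2 fold change (TPA over control, log axis) for the 12159 genes tested, and the lower panel the 6 tested members with their SE. EGR2 and EGR1 lie at the right edge of the distribution, EGR3 and NAB2 in its right tail, and NAB1 and SRF near 0.

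Summed over the family, EGR transcripts came to 289 and 219.9 RPKM with TPA, against 2.04 and 1.37 RPKM in control. The composition also differed, but the control shares rest on these low sums, in which only EGR1 exceeded 1 RPKM. EGR1 made up 53.4% and 40.9% of the sum and EGR2 42.9% and 56.0% in the TPA libraries, whereas in the control libraries EGR1 made up 79.4% and 73.8% and EGR2 16.6% and 25.4%. The summed NAB level was 87.7 and 97.1 RPKM with TPA and 26.5 and 28.0 RPKM in control. The EGR sum was thus 3.29 and 2.26 times the NAB sum in TPA libraries and 0.0769 and 0.0490 times it in control libraries. An exact permutation test over 2 against 2 samples cannot give a two-sided p below 0.33, so these sums and ratios are given as a description.

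**Figure D4:**
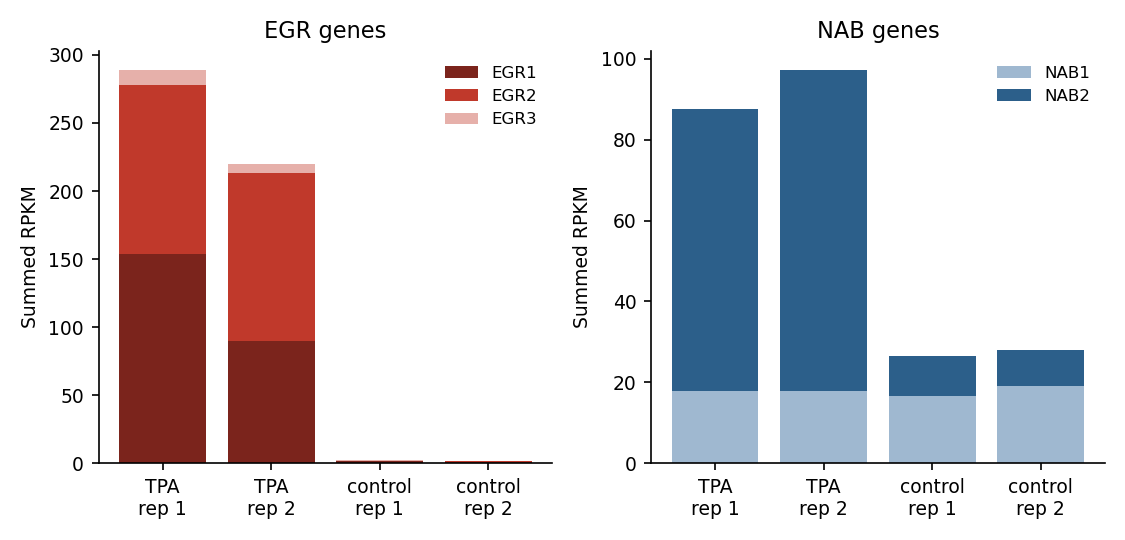
Summed RPKM of EGR genes (left, stacked as EGR1, EGR2 and EGR3; EGR4 is too low to draw) and of NAB genes (right, stacked as NAB1 and NAB2) in each library. The EGR stack is 289 and 219.9 RPKM with TPA and barely visible in control, and the NAB1 block keeps a similar height throughout while the NAB2 block is tall in the TPA libraries alone.

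By mean level the order with TPA was EGR2, EGR1, NAB2, NAB1, SRF, EGR3 and EGR4, and in control it was SRF, NAB1, NAB2, EGR1, EGR2, EGR3 and EGR4. With TPA the neighbours EGR2 and EGR1, and NAB1 and SRF, overlapped in their replicate values. The lower EGR1 value, 89.9 RPKM, stayed above the higher NAB2 value, 79.3 RPKM. In control the values of neighbouring members did not overlap.

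The 2 TPA libraries differed for EGR1 and EGR3 and not for EGR2. The gap between TPA replicates on the log2 scale, replicate 1 minus replicate 2, was 0.77 for EGR1, 0.59 for EGR3 and 0.01 for EGR2, against a median of -0.13 over all genes tested. A smaller absolute gap was found for 98.3% of tested genes in the case of EGR1 and for 96.1% in that of EGR3. EGR1 was also higher in replicate 1 of the control, with a gap of 0.38. Of the 14 tested immediate early genes that ERK and SRF are known to drive, 13 were higher in TPA replicate 1, whereas 26.8% of all tested genes were. Of the 15 pre-B markers, 2 were higher in that library and 13 lower. Most tested genes were likewise not higher there, so nothing particular to the markers is read from that count. With only TPA replicate 2 the log2 fold change was 5.31 for EGR1 and 2.90 for EGR3, and with only replicate 1 it was 6.08 and 3.49; both genes passed in each fit. The part of sampling time or culture in this gap was not tested.

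Genes around the circuit were read from lists of genes known to act with or below these factors, and each count stands beside the 28.4% of all tested genes that rose and the 29.8% that fell. A gene that reached 1 RPKM in its TPA libraries alone could hardly enter other than as a rise, so counts and medians that hold such genes are descriptions. Among 5 tested SRF partner genes, the ternary complex factor genes ELK3 and ELK1 rose and 3 did not pass, with a median log2 fold change of 0.19, against -0.02 for all genes tested. ELK3 had 14.2 and 16.0 RPKM with TPA and 0.994 and 0.615 RPKM in control, passing the filter through its TPA libraries alone, and ELK1 had 36.2 and 41.8 RPKM with TPA and 17.9 and 17.1 RPKM in control. The third ternary complex factor gene, ELK4, had 8.93 and 8.13 RPKM with TPA and 9.68 and 10.4 RPKM in control and did not pass, nor did the actin-regulated coactivator genes MKL1 and MKL2 (log2 fold changes of 0.08 and 0.19).

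Of 20 ERK-SRF immediate early genes, 14 were tested; 13 rose (92.9%) and CCNL1 did not pass, with a median of 1.67. FOS, FOSB and DUSP5, 3 of these 13, passed the filter through their TPA libraries alone. The largest rises on the log2(RPKM + 1) scale were those of BTG2, an antiproliferative gene (log2 fold change 5.13), IER2 (3.64) and the kinase gene SGK1 (2.92). IER2 had 207 and 196 RPKM with TPA and 14.5 and 15.9 RPKM in control, and SGK1 had 36.1 and 16.3 RPKM with TPA and 1.91 and 2.83 RPKM in control. CCNL1 had a log2 fold change of -0.04. On that scale EGR1 and EGR2 had larger fold changes than every tested gene of this list. The order depends on the constant of 1: DUSP5, a phosphatase gene of the ERK pathway, had 8.63 and 3.62 RPKM with TPA and 0.017 and 0 RPKM in control, a log2 fold change of 2.73 but a ratio of means of 720.7, above those of EGR1, EGR2 and BTG2 (41.0).

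A list of 26 genes held genes of the actin cytoskeleton and other genes that SRF is known to drive with its MKL coactivators. Of the 26, 21 entered the fit, 1 of them (FILIP1L) through its TPA libraries alone. Of these 8 rose (38.1%, against 28.4% of all genes tested), 5 fell (23.8%, against 29.8%) and 8 missed the threshold, with a median of 0.13, so the shares lay near those of all genes. ZYX, the focal adhesion gene of zyxin, had 242 and 204 RPKM with TPA, against 18.1 and 18.7 RPKM in control (log2 fold change 3.53), and CNN2 and VCL rose with log2 fold changes of 1.90 and 1.27. CALD1, CNN3 and TAGLN2, also genes of actin-binding proteins, fell with log2 fold changes of -1.94, -0.999 and -0.88. ACTB, the gene of β-actin, had 1625 and 1724 RPKM with TPA and 1769 and 1671 RPKM in control and did not pass.

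Genes reported as EGR targets in other cells were represented by 26, of which 17 entered the fit, 10 with a rise (58.8%), 2 with a fall (11.8%) and 5 that missed the threshold, with a median log2 fold change of 0.91. IL2RB and CD44, 2 of the 10, passed the filter through their TPA libraries alone. The interleukin-2 receptor gene IL2RB had 7.53 and 8.01 RPKM with TPA and 0.084 and 0.125 RPKM in control (log2 fold change 2.99). CBLB, a ubiquitin ligase gene that EGR2 and EGR3 are known to raise in anergic T cells, had 17.2 and 18.4 RPKM with TPA and 2.76 and 2.90 RPKM in control (2.30). NDRG1 rose by a like amount (2.28). ID3, an inhibitor of E proteins that EGR factors raise in developing thymocytes, had 309 and 391 RPKM with TPA, against 99.7 and 100.7 RPKM in control (1.78). FASLG, another T-cell target, had 0.660 and 0.682 RPKM with TPA, was listed at 0 in control and stayed below the filter. CDKN1A, a cyclin-dependent kinase inhibitor gene, fell, with a log2 fold change of -1.08.

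Of 7 tested genes of factors that bind overlapping GC-rich sites, KLF5, WT1 and SP3 fell (42.9%, against 29.8% of all genes tested) and the other 4 did not pass (limma, adjusted p of 0.425 to 0.892), so that 0 rose, against 28.4% of all genes tested, as also at an unadjusted p under 0.05. Their median was -0.13, and with 7 genes nothing particular to the list is read from these shares. WT1, whose zinc finger product can bind EGR sites, had 5.57 and 7.83 RPKM with TPA and 15.5 and 12.9 RPKM in control (log2 fold change -0.99). SP1, the ubiquitous GC-box factor gene, had 19.1 and 16.7 RPKM with TPA and 19.2 and 20.0 RPKM in control and did not pass. NAB proteins repress in part through the NuRD complex, and among 12 tested genes of NuRD and CoREST, CHD4 alone rose (8.33%, against 28.4% of all genes tested), 5 fell (41.7%, against 29.8%) and 6 missed the threshold, with a median of -0.26. CHD4, the ATPase of NuRD with which NAB2 is known to interact, was at 152 and 126 RPKM with TPA, against 67.8 and 65.7 RPKM in control (log2 fold change 1.04). RBBP4, MBD3 and RBBP7 had the largest falls of this list, with log2 fold changes of -0.81, -0.79 and -0.76.

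**Figure D5:**
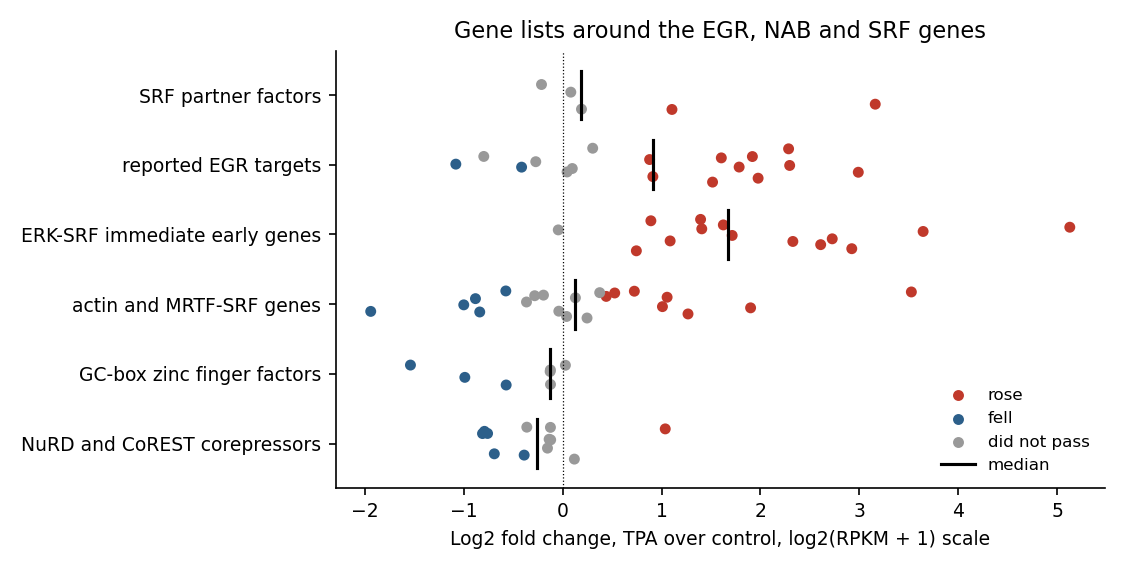
Log2 fold change (TPA over control) of each tested gene in 6 lists around the EGR circuit, 1 point per gene, coloured by call, with the list median as a black bar. Points of the immediate early list lie almost wholly to the right of 0 (13 of 14 rose), those of the actin list spread to both sides, and those of the GC-box list lie near 0 or left of it.

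The genes whose levels were most like those of each member were found by Euclidean distance of log2(RPKM + 1) over the 4 libraries. Nearest to EGR1 were RMDN2 (distance 0.57), LINC01547 (0.75) and PLEK (0.94), the last a known protein kinase C substrate gene, and to EGR2 they were KIR3DX1 (0.24), TNFRSF9 (0.48) and again LINC01547 (0.56). EGR3 lay nearest to 3 noncoding genes, LINC01914 (0.08), CYTOR (0.31) and LINC00702 (0.36). LINC01914 had 10.9 and 7.24 RPKM with TPA and 0.081 and 0 RPKM in control, close to EGR3 in each library. NAB2 was nearest to GFI1 (0.25), a zinc finger repressor gene, LCK (0.34), a SRC-family kinase gene, and EVI2A (0.35), all of which rose. The genes nearest to NAB1 were TRMT6 (0.06), CCNT1 (0.08) and RNF6 (0.10), and to SRF they were ZNF672 (0.07), AGBL5 (0.08) and FAM117A (0.09).

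The next protein-coding genes beside the members did not match them in size of change. Beside EGR2, ADO rose to 52.4 ± 7.14 RPKM with TPA, against 21.7 ± 1.88 RPKM in control, and NRBF2 to 7.81 ± 0.780 RPKM with TPA, against 5.59 ± 0.278 RPKM in control. Beside EGR1, the translation release factor gene ETF1 fell to 30.1 ± 0.887 RPKM with TPA, against 51.1 ± 3.65 RPKM in control, and REEP2 had under 1 RPKM in all 4 libraries. Beside SRF, PTK7 had 19.9 ± 3.42 RPKM with TPA and 19.2 ± 1.04 RPKM in control and did not pass.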

How the data were processed

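RNA-seq of 4 libraries was analysed, 2 with TPA and 2 control, grouped by sample title. The authors deposited 1 table of RPKM values, per the file headers, with 1 RefSeq accession per gene. CASAVA 1.8, Bowtie 1.12, TopHat, SAMtools and HOMER on hg19 are named in the submitters' processing notes, without role or order; strand use and treatment of multi-mapping reads are not given in the sources used here. The members and lists were chosen with earlier results of these data known.

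The 12159 genes that reached 1 RPKM in 2 or more libraries were transformed to log2(RPKM + 1) and fitted across all genes with limma 3.58.1 in R 4.3.3 (empirical Bayes with trend, TPA minus control, two-sided, 2 residual and 5.88 prior degrees of freedom), with Benjamini-Hochberg adjustment over all genes tested. The fit was also run on simulated data. There far fewer genes changed than passed here and noise was independent between libraries, so that run does not bear on the calls above. The log2(RPKM + 1) scale understates changes of low genes. Relative depth came from ratios of values between 0.03 and 0.15 RPKM; read totals are unknown, so no counting interval is given. Genes named are all members, up to 3 rises and 3 falls per list by size, the 3 nearest genes per member, overlapping or adjacent genes, and others chosen after their values were seen (ELK4, MKL1, MKL2, CCNL1, ACTB, ID3, FASLG, SP1, FOS, FOSB, DUSP5, CD44, FILIP1L and the marker genes). Single-gene values of some list members are not reported here. Alternatives were no filter or one of 5 RPKM, pseudocounts of 0.1 and 0.5, median-of-ratios scaling, quantile normalization, no trend, robust estimation, the replicate number as a block and each library left out. RefSeq promoter windows of 250 bases (GRCh38.p14) were searched by pattern, with motifs chosen after the windows were seen. Figures were drawn with matplotlib 3.10.9.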

Additional observations from a re-analysis of the deposited data

How the results depend on the processing

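EGR1, EGR2, EGR3 and NAB2 rose with an adjusted p under 0.05 in all 13 alternatives (limma), with log2 fold changes of 5.31 to 6.41, 6.43 to 8.12, 2.90 to 5.93 and 2.77 to 2.97. NAB1 passed in none, and its sign turned after quantile normalization (0.0416), without TPA replicate 1 (0.00274) and without control replicate 2 (0.0861); its range with 1 library left out was -0.0895 to 0.0861. SRF did not pass with all libraries, but it did after median-of-ratios scaling (-0.39), quantile normalization (-0.32), with the replicate block (-0.37, adjusted p = 0.0226) and without TPA replicate 2 (-0.51), and its range with 1 library left out was -0.51 to -0.22. The cause was not tested. Replicate numbers are shared by name only; the differences between replicates 1 and 2 correlated between groups with r = 0.36 over genes, which are not independent. With no filter, 27142 genes were tested with 0.663 prior degrees of freedom. In that fit 2097 genes fell, against 3621, and 2514 rose, against 3454. In fits with 1 library left out, the lone sample is assumed to vary like the other group, and without either control the prior degrees of freedom became infinite, so those p-values are not comparable. List counts stayed within 1.5 times of the main ones except for 1 of 13 alternatives for falls of GC-box and NuRD genes and for both directions of actin genes, and 3 of 13 for falls of EGR targets.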

Other observations

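The promoter motifs were also counted over all tested genes with a RefSeq window (8941). A CArG box stood before 10 of the 336 that rose at least 4-fold with an adjusted p under 0.05 (2.98%), before 4 of the 302 that fell as much (1.32%) and before 1.42% of all. An EGR site stood before 67 of the 336 that rose (19.9%), 45 of the 302 that fell (14.9%) and 17.7% of all. The CRE core TGACGT was found in 9.82% of those that rose, 12.6% of those that fell and 12.9% of all. The ETS site CCGGAA stood before 66 of the 336 that rose (19.6%), 81 of the 302 that fell (26.8%) and 31.7% of all. EGR1 and EGR2 are themselves among the 10 with a CArG box, and EGR1 and NAB2 among the 67 with an EGR site. The motifs were chosen after the windows were seen, so no support is drawn from these shares. They describe letters in 250 bases and were not tested.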
